A study of Rattus norvegicus with 8 samples.

Results

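The pituitary hormone genes were followed by probe in hypothalamic RNA of female and male rats. They are 9 genes chosen by name: Gh1, Prl, Lhb, Fshb, Tshb and Cga, which encode hormones or hormone subunits of the anterior pituitary, Pou1f1, a transcription factor of pituitary cells, and the receptors Gnrhr and Ghrhr. All spots that were not controls and carried one of these names were taken, which gave 11 probes of 1 spot each among the 30367 probes of the array. Pou1f1 and Ghrhr had 2 probes each and every other gene had 1.

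The study compared the hypothalami of 4 female Sprague Dawley rats, all in estrus, with those of 4 males of the same strain. All animals were 3 to 4 months old and housed singly, and the labels name no treatment. Each of 4 arrays of 1 slide carried a female and a male labelled with different dyes, the females in Cy3 on arrays 1 and 3 and in Cy5 on arrays 2 and 4. Samples are written F1 to F4 for the females and M1 to M4 for the males, and F1 shared array 1 with M1, and so on. Since every female was in estrus, sex and stage of the cycle cannot be told apart.

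The hypothalamus sends releasing and inhibiting factors through portal vessels to the anterior pituitary, whose cells make growth hormone, prolactin, the gonadotropins and thyrotropin. Thyrotropin, luteinizing hormone and follicle-stimulating hormone are pairs of subunits that share the alpha subunit encoded by Cga and differ in their beta subunit, encoded by Tshb, Lhb or Fshb. The pars tuberalis, a sheet of pituitary tissue on the underside of the hypothalamus at the median eminence, is known for cells that make Cga and Tshb and carry the melatonin receptor, and that lack most other hormones of the anterior pituitary. Pou1f1 is required for cells that make growth hormone, prolactin and thyrotropin in the pars distalis, the main body of the anterior lobe.

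The probes are 60 bases long, and their positions on the rn4 build were taken from the array files. Sequences are shown for 3 of them, since each marks what the signal of its gene was read from. The Gh1 probe, at chr10:95692241-95692300, lies in coding sequence and is given whole. The Fshb probe, at chr3:92569344-92569403, ends with a stop codon, in capitals. Of the Lhb probe, at chr1:95893918-95893977, the last 30 bases are given, with a polyadenylation signal in capitals.
Gh1 probe: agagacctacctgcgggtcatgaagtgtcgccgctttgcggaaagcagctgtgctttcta
Fshb probe: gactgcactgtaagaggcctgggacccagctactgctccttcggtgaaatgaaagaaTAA
Lhb probe, 3′ end: gtgttctaaccatccctcccAATAAAggct
The remaining probes were those of Tshb at chr2:197908322-197908381, Cga at chr5:51550265-51550324, Prl at chr17:44699179-44699238, Gnrhr at chr14:23656426-23656485, Ghrhr at chr4:84148059-84148118 and chr4:84148363-84148422, and Pou1f1 at chr11:2979849-2979908 and chr11:2979562-2979621. In the current RefSeq annotation (GRCr8) Lhb ends at the same base as Saxo3, which had no probe by name on the array, so the Lhb signal is uncertain. Tshb lies within Tspan2 on the opposite strand, and Pou1f1 overlaps an uncharacterized lncRNA.

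A level is the log2 signal in a sample's own dye channel after background correction and normalization, and levels of different probes are not compared. A probe is called well above background in a sample by the scanner software. Between 84.9% and 87.0% of spots were so called in the 4 Cy3 samples, and between 77.6% and 80.2% in the 4 Cy5 samples. Saturated spots numbered 0. Of all probes, 68.6% were so called in each of the 8 samples and 14.5% in 0 of 8. The number of arrays limits the precision of every value.

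The male sample M2 stood apart. In M2 the 11 measured hypothalamus markers lay on average 1.75 below their mean over the 8 samples on the log2 scale (a deviation of -1.75), against deviations of -0.15 to 0.64 in the other samples. The 6 measured markers of cortex, hippocampus and striatum lay at 2.28 in M2, against -0.89 to 0.78 elsewhere. The 0.78 was that of F2, which shared its array with M2. Results are therefore also given without replicate 2, which removes array 2 and so M2 and F2 together.

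Tshb and Cga, the subunits of thyrotropin, were well above background in all 8 samples and differed strongly between animals, whereas the 4 females and 4 males overlapped. Lhb was also well above background in all 8. Gh1 was close to background and higher in the female on 4 of 4 arrays, without passing the adjusted test. Prl, Gnrhr, Ghrhr and 1 of the Pou1f1 probes were at or near background. Of the 9 genes, 6 passed the filter for the test, which asks for a signal well above background in every animal of 1 sex or both. By limma with Benjamini-Hochberg adjustment, 0 of these 6 had an adjusted p under 0.05, where the share of all 21995 tested probes so called was 0%. At an unadjusted p under 0.05, 1 of the 6 was called, Gh1, against 8.5% of all probes. It was higher in females, and 4.98% of all tested probes were both called and higher in females. Gh1 passed the filter through the females alone, and without the filter its unadjusted p was 0.0521 (limma). These counts moved with the replicate left out. Without replicate 4, 1 member (Tshb) and 1479 probes in all had an adjusted p under 0.05, and Tshb and Cga an unadjusted p under 0.05, against 29.6% of all probes. At that unadjusted threshold 2 members (Gh1 and Tshb) were called without replicate 2, against 7.99% of all probes, and 0 without replicate 3, against 1.84%.

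**Figure D1:**
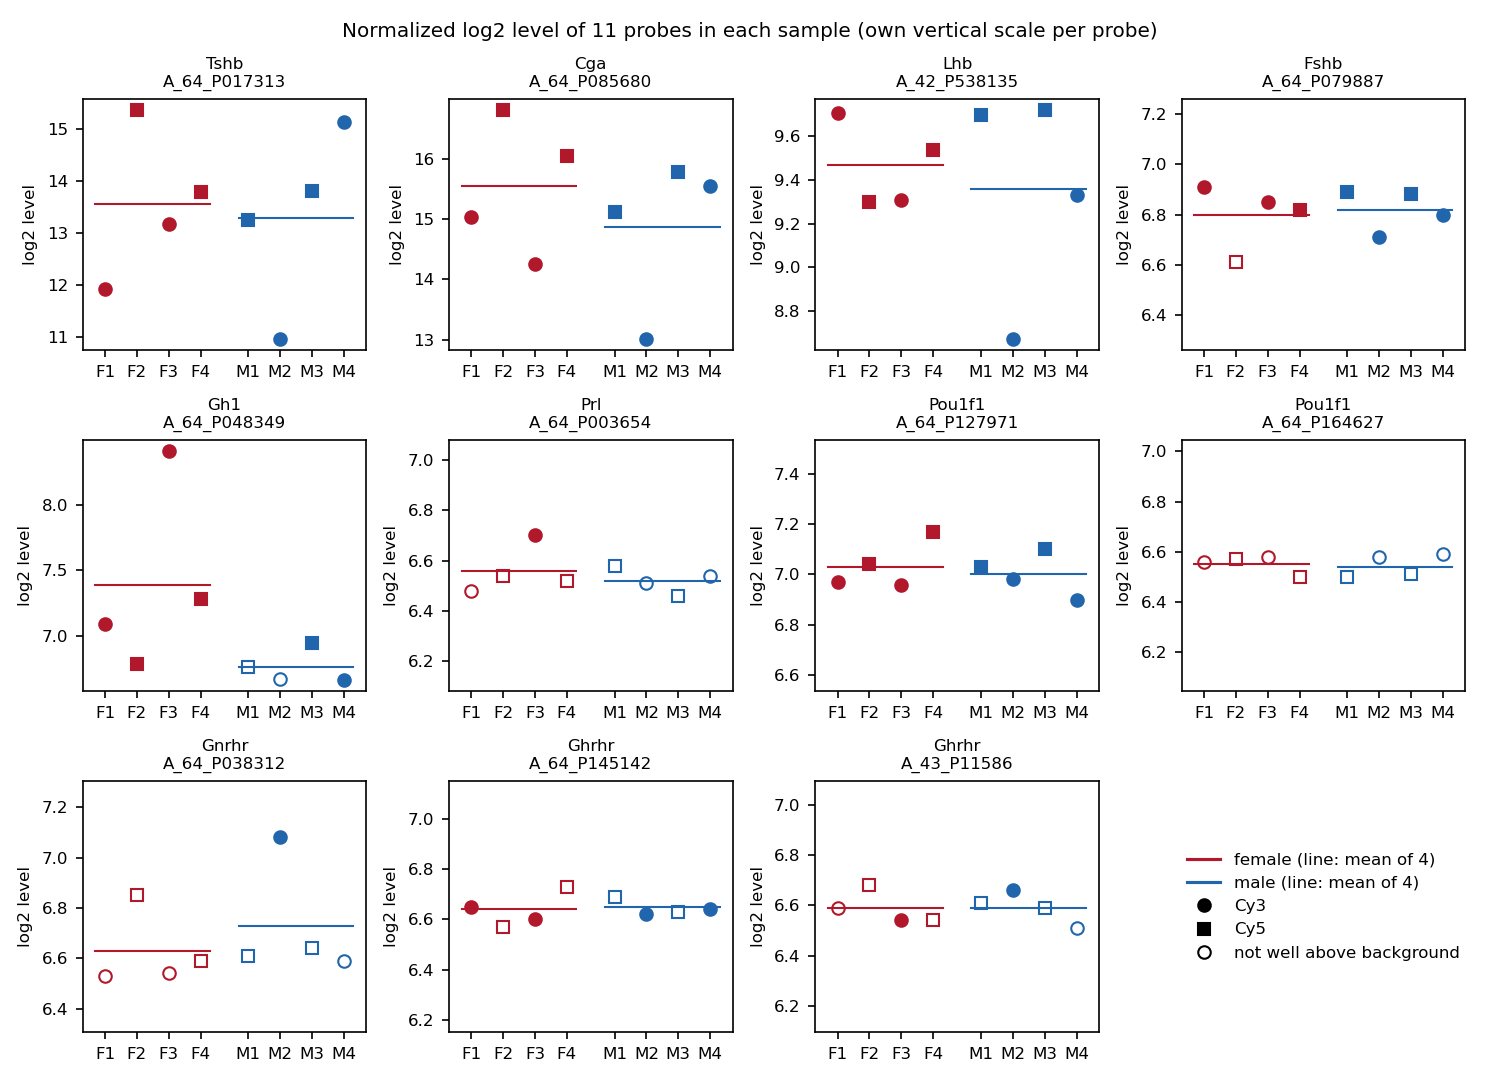
Normalized log2 level (vertical axis, own scale for each probe) of the 11 probes in each of 8 samples, females left and males right. Circles are Cy3 and squares Cy5 samples, open symbols were not well above background, and horizontal lines are the mean of 4. Tshb spans from 10.97 in M2 to 15.35 in F2, while Prl stays between 6.46 and 6.70.

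Tshb encodes the beta subunit that makes thyrotropin specific. Its scanned signal was 5209, 24121, 14679 and 7841 intensity units in F1 to F4, against 8161, 3036, 10091 and 52890 in M1 to M4. The normalized log2 levels were 11.93, 15.35, 13.18 and 13.78 in F1 to F4, against 13.24, 10.97, 13.81 and 15.13 in M1 to M4. M2 was the lowest sample by both measures, while M4 had the highest signal and F2 the highest normalized level, and the sexes overlapped. After the mean difference between dyes was removed for the probe, the level averaged 13.56 ± 0.93 in females and 13.29 ± 1.77 in males (SD, n = 4 each). These dye-corrected levels ran from 11.59 in M2 to 15.75 in M4, a range of 17.9-fold. The SD over the 8 samples was 1.32, larger than that of 99.8% of 21823 probes, whose median SD was 0.15.

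The female over male log2 ratio of Tshb was -1.31, 4.38, -0.63 and -1.35 on arrays 1 to 4, so the female was lower on 3 of 4 arrays and far higher on the array that held M2. The fitted ratio was 0.27 ± 0.99 (SE), with a 95% interval from -2.42 to 2.97 (limma, adjusted p = 0.915), so the ratio was smaller than its error. Without replicate 2 the ratio was -1.16 (limma, unadjusted p = 0.00221, adjusted p = 0.598). Without replicate 4, which holds the bright male M4, it was 1.71 (limma, adjusted p = 0.0317), in a fit where 29.6% of all probes had an unadjusted p under 0.05. The direction of the Tshb difference thus turned with the array left out. Without replicate 2, array 4 was the only array with the female in Cy5, and without replicate 4 this was array 2, which held M2. That array carried more weight in the ratio than either of the others. The residual spread of the probe came from the other arrays alone.

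Cga encodes the alpha subunit shared by thyrotropin and the gonadotropins. Its scanned signal was 44403, 70926, 29968 and 39062 intensity units in F1 to F4, against 30581, 12547, 40579 and 69067 in M1 to M4. The normalized log2 levels were 15.04, 16.80, 14.25 and 16.05 in F1 to F4, against 15.11, 13.01, 15.78 and 15.54 in M1 to M4. M2 was the lowest of the 8, and the other males lay within the range of the females. The dye-corrected level averaged 15.54 ± 0.48 in females and 14.86 ± 1.08 in males (SD, n = 4 each), with a 5.79-fold range from M2 to M4. The SD over the 8 samples was 0.86, larger than that of 99.2% of the probes.

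On arrays 1 to 4 the female over male log2 ratio of Cga was -0.07, 3.79, -1.52 and 0.51, with 2 arrays above and 2 below 0. The fit gave 0.68 ± 0.62 (SE), with a 95% interval from -1.0 to 2.35 (limma, adjusted p = 0.66). Without replicate 2 it was -0.14 (limma, adjusted p = 0.908), and without replicate 4 it was 1.5 (limma, adjusted p = 0.0761). As with Tshb, the difference between the sexes was smaller than the spread between animals.

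**Figure D2:**
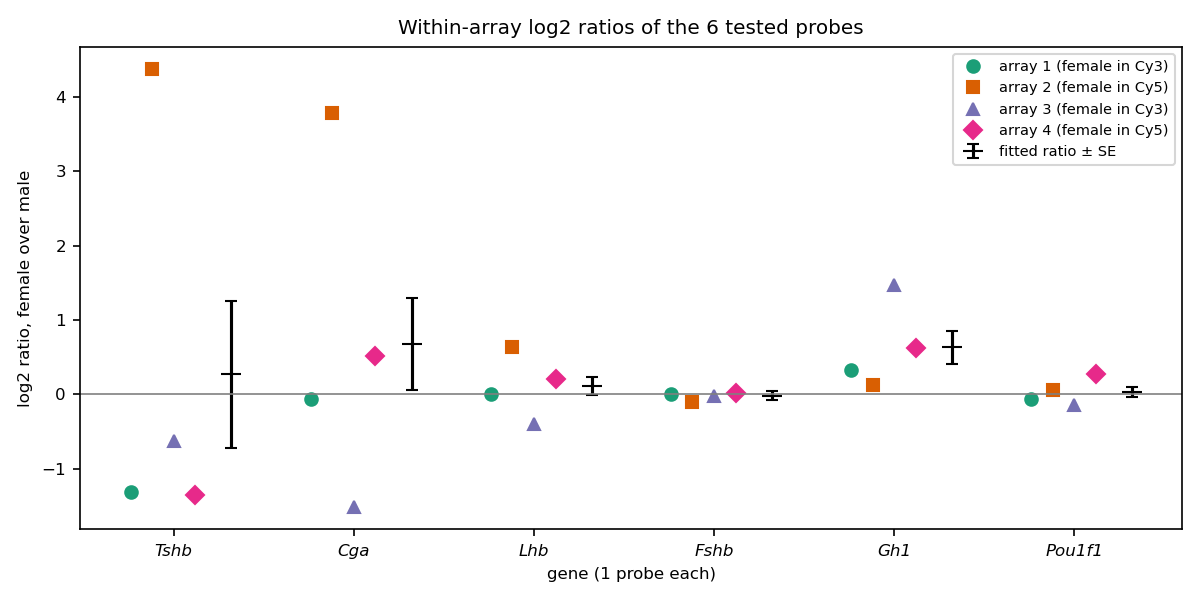
Log2 ratio of female over male (vertical axis) on each of the 4 arrays for the 6 tested probes, with the fitted ratio and its SE in black. Array 2 holds the ratios of 4.38 for Tshb and 3.79 for Cga, and the Gh1 ratios lie above 0 on 4 of 4 arrays.

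Across the 8 samples the dye-corrected levels of Tshb and Cga correlated at Pearson's r = 0.81 (exact permutation p = 0.0161, adjusted over 3 pairs p = 0.0483). Spearman's rho was 0.67 (exact permutation p = 0.0831, adjusted p = 0.249). Without the 2 samples farthest from the median of Tshb, M4 and M2, r was 0.50 in the 6 left, so the relation rests in part on those samples, and without M2 alone it was 0.71. These permutations take the 8 samples as exchangeable, although each female shared an array with a male, so p may be too small or too large. Each dye held 4 samples, too few for a value within it. For Lhb with Cga r was 0.44 and rho 0.19 (exact permutation p = 0.283 and 0.665, adjusted p = 0.424 and 0.935). For Lhb with Tshb r was 0.13 and rho -0.05 (exact permutation p = 0.754 and 0.935, adjusted p = 0.754 and 0.935). Without the samples farthest from the median of Lhb, M2 and F1, these values of r were -0.58 for Cga and -0.39 for Tshb. In all these omissions the dye correction was still the one made over the 8 samples. The samples left out therefore still shaped the levels of the others, and the values of r are not free of them.

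Lhb encodes the beta subunit of luteinizing hormone. The scanned signal of its probe was 1084, 300.0, 915 and 370.0 intensity units in F1 to F4, against 672, 512, 560.0 and 864 in M1 to M4. The log2 levels were 9.71, 9.30, 9.31 and 9.54 in F1 to F4, against 9.70, 8.67, 9.72 and 9.33 in M1 to M4. M2 was the lowest, and the other 7 samples lay between 9.30 and 9.72. The female over male ratio was 0.11 ± 0.12 (SE), with a 95% interval from -0.21 to 0.43 (limma, adjusted p = 0.701), and 0.0060 without replicate 2 and 0.21 without replicate 4. In dye-corrected levels the SD was 0.31, larger than that of 86.1% of probes.

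Fshb encodes the beta subunit of follicle-stimulating hormone. Its log2 level was 6.91, 6.61, 6.85 and 6.82 in F1 to F4, against 6.89, 6.71, 6.88 and 6.80 in M1 to M4. It was well above background in 3 females and 4 males, and the sexes overlapped. The fitted ratio was -0.02 ± 0.06 (SE), with a 95% interval from -0.20 to 0.15 (limma, adjusted p = 0.877), and it was 0.0046 without replicate 2. The SD over the 8 samples was 0.10, larger than that of 27.4% of probes.

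Gh1 encodes growth hormone. Its scanned signal was 80.5, 40.7, 338 and 65.7 intensity units in F1 to F4, against 38.1, 29.2, 47.7 and 44.4 in M1 to M4, where the local background of these spots was 28.0 to 43.0. The log2 levels were 7.09, 6.78, 8.41 and 7.28 in F1 to F4, against 6.76, 6.67, 6.94 and 6.66 in M1 to M4. F3 was the brightest of the 8, and F2 lay below M3, so the sexes overlapped. The probe was well above background in 4 females and in 2 males, M3 and M4, and it entered the test through the females.

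The within-array log2 ratio of Gh1 was 0.33, 0.12, 1.47 and 0.62, above 0 on 4 of 4 arrays, which held for 5.24% of all tested probes. The fitted ratio was 0.63 ± 0.22 (SE), or 1.55-fold, with a 95% interval from 0.03 to 1.24 (limma, unadjusted p = 0.0433, adjusted p = 0.555). Among all tested probes, 0.814% had an unadjusted p under 0.05 with a change of at least 1.5-fold in either direction. An exact two-sided permutation that exchanged the sexes within arrays gave p = 0.125, the smallest it can give with 4 arrays. The ratio was 0.76 without replicate 2 and 0.35 without replicate 3, which holds F3, and 0.51 without replicate 4. The unadjusted p was 0.108 without replicate 3 and 0.122 without replicate 4 (limma), so the unadjusted call was lost in both. The ratio was 1.12 without background correction and 2.36 from the scanner software's own log ratio.

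Prl, which encodes prolactin, was well above background in 1 female, F3, and in 0 males. Its log2 level was 6.48, 6.54, 6.70 and 6.52 in F1 to F4, against 6.58, 6.51, 6.46 and 6.54 in M1 to M4. The mean was 6.56 in females and 6.52 in males, and the probe was not tested. The within-array ratio was above 0 on 2 arrays and below 0 on 2, so no direction is given. F3 was thus the sample with the highest level of both Gh1 and Prl. The scanned signal of Prl in F3 was 35.1 intensity units, however, below its local background of 41.0.

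**Figure D3:**
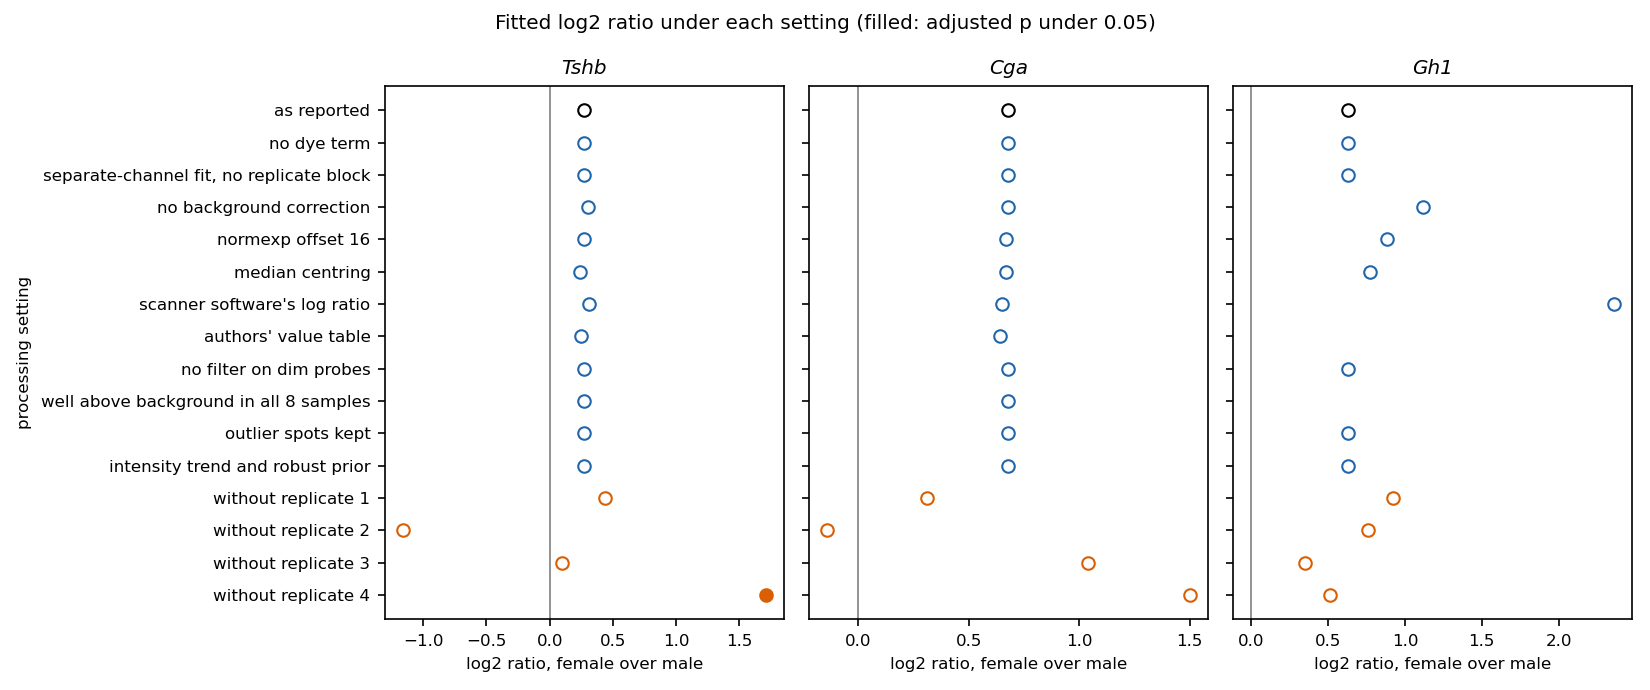
Fitted log2 ratio of female over male (horizontal axis) of Tshb, Cga and Gh1 under each processing setting (rows), filled where the adjusted p was under 0.05. Tshb runs from -1.16 without replicate 2 to 1.71 without replicate 4, Cga from -0.14 to 1.5, and Gh1 from 0.35 without replicate 3 to 2.36 with the scanner software's log ratio.

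Pou1f1 encodes the transcription factor on which Gh1, Prl and Tshb depend in the pars distalis. Its probe at chr11:2979849-2979908 was well above background in all 8 samples, with log2 levels of 6.97, 7.04, 6.96 and 7.17 in F1 to F4, against 7.03, 6.98, 7.10 and 6.90 in M1 to M4. The levels of the sexes overlapped, and the fitted ratio was 0.03 ± 0.07 (SE), with a 95% interval from -0.16 to 0.23 (limma, adjusted p = 0.85). The SD over the 8 samples was 0.05, larger than that of 3.5% of probes. The other Pou1f1 probe was well above background in 0 of 8 samples, with levels of 6.5 to 6.58 in females and 6.5 to 6.59 in males. The pair of probes of this gene thus disagreed on whether a signal was present.

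The receptors through which hypothalamic factors act on pituitary cells were near background. Gnrhr, the receptor for gonadotropin-releasing hormone, was well above background in 0 females and 1 male, M2, where its level was 7.08, against 6.53 to 6.85 in the females and 6.59 to 6.64 in the other males. The mean was 6.63 in females and 6.73 in males, and since a single sample was well above background no direction is given. Ghrhr, the receptor for growth hormone-releasing hormone, had 1 probe well above background in 2 females and 2 males, which were the 4 Cy3 samples, and in 0 of the 4 Cy5 samples, a pattern held by 3.09% of all probes. Its levels were 6.57 to 6.73 in females and 6.62 to 6.69 in males. The other Ghrhr probe was well above background in F3 and M2, both Cy3 samples, with levels of 6.54 to 6.68 in females and 6.51 to 6.66 in males. None of the receptor probes was tested.

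Other genes of the pituitary were read beside the members. Of 14 further anterior pituitary markers, 13 were on the array and 8 were tested, and 7 of those had a signal well above background in every sample. Of these 8, 0 were called at an unadjusted p under 0.05, against 8.72% of all 13371 genes by brightest probe, and their median ratio was 0.10 beside 0.02 over all genes. That median was -0.07 without replicate 2 and 0.32 without replicate 4. Without replicate 4, where 29.6% of all probes were called, 4 of these markers were. Without replicate 1 and without replicate 2 the number was 1, against 4.03% and 7.99% of all probes. Among them were Pitx1, a transcription factor of the pituitary lineage, with a fitted ratio of 0.07 ± 0.21, and Tbx19, a factor of corticotrophs, with 0.16 ± 0.12 (SE). Foxl2, a factor of gonadotrophs, had a ratio of -0.21 ± 0.12 (SE) (limma, adjusted p = 0.566). Its ratios on the arrays in order were -0.11, -0.0025, -0.7 and -0.03, so a single array made most of the difference. Hesx1, a factor of early pituitary development, was well above background in 0 of 8 samples. In M2 the 8 markers deviated by -0.66 on average, against -0.11 to 0.31 in the other samples. The largest part of this came from Pomc, whose dye-corrected level was 11.25 in M2, against 13.46 to 14.47 elsewhere. The hypothalamus markers also lay low in M2, with a mean deviation of -1.75. Whether the Pomc signal came from pituitary or hypothalamic cells was not tested. Not every marker was low there: the dye-corrected level of Foxl2 was 6.81 in M2, against 6.61 to 7.27 elsewhere, and that of Lhx4, another factor of pituitary development, was 6.94, against 6.87 to 6.98. Pitx1 had a level of 10.12, 10.66, 10.14 and 10.59 in F1 to F4, against 10.57, 9.40, 10.75 and 10.50 in M1 to M4, with M2 lowest.

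The broader list of pituitary transcription factors had 9 tested genes, 0 called in either direction, and a median ratio of 0.04. This median was -0.05 without replicate 2 and 0.14 without replicate 4. Genes called numbered 3 without replicate 4 and 1 without replicate 1 or replicate 2. The share of all probes called was 29.6% without replicate 4, 7.99% without replicate 2 and 4.03% without replicate 1. A list of other pituitary receptors, among them Trhr, the receptor for thyrotropin-releasing hormone, also had 9 tested genes with 0 called (3 without replicate 4, 1 without replicate 2) and a median of 0.0020, and Trhr had a ratio of 0.27 ± 0.12 (SE). Receptors for the pituitary hormones had 4 tested genes, 0 called (1 without replicate 4), and a median of 0.05, which was 0.14 without replicate 4 and 0.0014 without replicate 2. Of 21 other members of the prolactin and growth hormone family, which are mostly placental in rodents, 2 were tested, with 0 called and a median of -0.01, and 0 were well above background in all 8 samples.

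Markers of the pars tuberalis other than Tshb and Cga were Mtnr1a, a melatonin receptor, Eya3, a transcriptional coactivator, and Nmu, a neuropeptide. The 3 were tested, 0 were called by their brightest probe, and their median ratio was 0.13. Called were 1 without replicate 2 and 1 without replicate 4, against 7.99% and 29.6% of all probes. Nmu had array ratios of 0.89, 3.72, -0.28 and 0.61 and a fitted ratio of 1.23 ± 0.57 (limma, adjusted p = 0.555), which was 0.46 without replicate 2. Its ratio was highest on array 2, as for Tshb and Cga. The other Nmu probe had a ratio of 0.50 ± 0.17 (SE) (limma, unadjusted p = 0.0367, adjusted p = 0.555), which was 0.33 without replicate 2. It thus passed the unadjusted threshold, as did 8.5% of all probes. Mtnr1a had a ratio of -0.11 ± 0.17 (SE). In bulk tissue fewer cells of a type and less RNA per cell cannot be told apart, and the part that tissue from the pars tuberalis or its dissection had in the spread of Tshb and Cga was not tested.

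**Figure D4:**
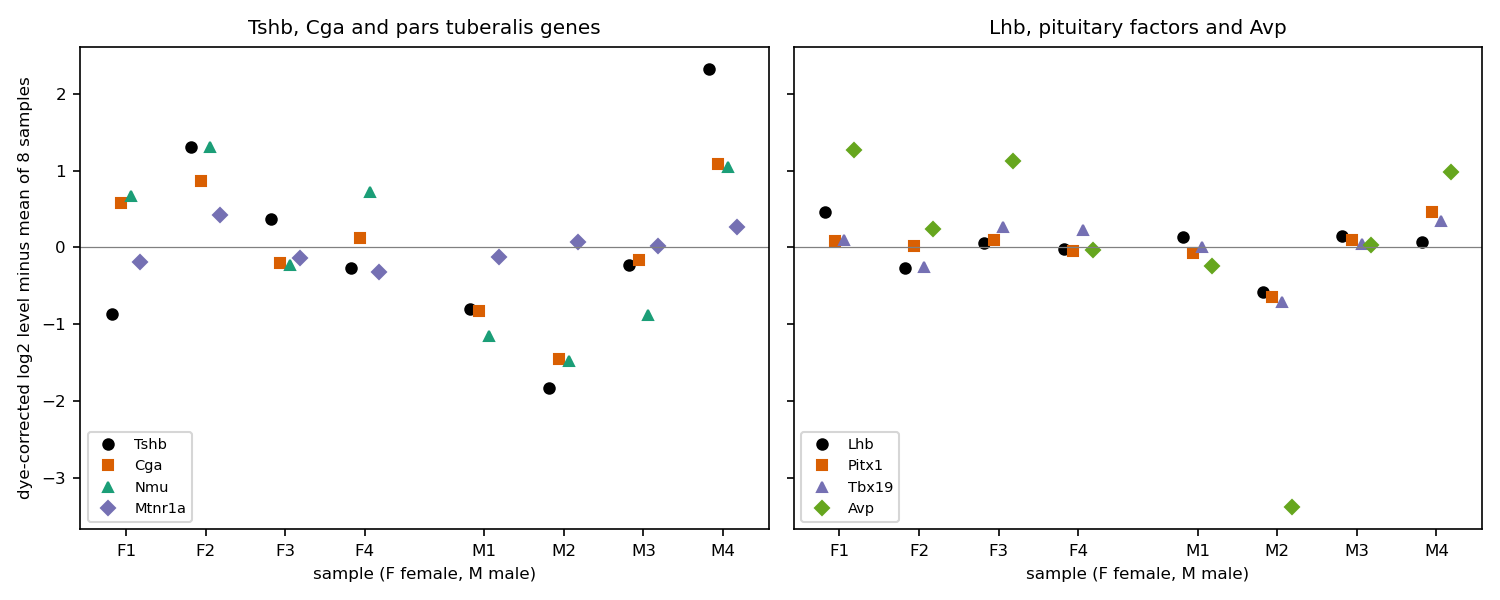
Dye-corrected log2 level minus the mean of 8 samples (vertical axis) in each sample, females left and males right, for Tshb, Cga, Nmu and Mtnr1a (left panel) and for Lhb, Pitx1, Tbx19 and Avp (right panel). M2 is the lowest sample for Tshb, Cga, Nmu, Lhb, Pitx1, Tbx19 and Avp.

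The hypothalamic factors that act on the pituitary had 15 tested genes. At an unadjusted p under 0.05, 4 were higher in females and 0 lower, against 5.03% and 3.69% of all genes, and 0 had an adjusted p under 0.05. These were Gnrh1, which encodes gonadotropin-releasing hormone, with 0.99 ± 0.20, Kiss1, which encodes its upstream activator kisspeptin, with 0.48 ± 0.09, Tac3, which encodes neurokinin B, with 0.49 ± 0.09, and Crh, which encodes corticotropin-releasing hormone, with 0.86 ± 0.20 (SE). The median of the list was 0.72. Without replicate 2 the median was 0.14 with 5 genes called, in a fit where 7.99% of all probes were called. In that fit the ratios were 0.81 for Gnrh1, 0.51 for Kiss1, 0.42 for Tac3 and 0.59 for Crh. Without replicate 4 the median of the list was 1.03 with 14 genes called, in a fit where 29.6% of all probes were called. Their mean deviation in M2 was -1.5, against -0.20 to 0.58 in the other samples.

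Markers of tissue that the dissection could include were read as well. The hypothalamus markers had 11 tested genes, 0 called, and a median ratio of 0.58, which was -0.07 without replicate 2. The 6 markers of cortex, hippocampus and striatum had a median of -0.62, with 1 gene lower in females, Neurod6, a neuronal transcription factor, and a median of -0.03 without replicate 2. The 4 choroid plexus markers had a median of -0.10, which was -0.25 without replicate 2, with 1 lower in females, Ttr, which encodes transthyretin. The 6 meninges markers had a median of 0.41, which was 0.17 without replicate 2, with 2 higher in females, Slc47a1 and Ogn. The 5 blood markers had a median of 0.26, which was -0.34 without replicate 2, and 0 called. Without replicate 4 the medians were 1.15 for hypothalamus, -1.17 for cortex, hippocampus and striatum, 0.04 for choroid plexus, 0.70 for meninges and 0.81 for blood. In the same fit the genes called were 7 for hypothalamus, 5 for cortex, hippocampus and striatum, 4 for meninges and 4 for blood, against 29.6% of all probes. Without replicate 2, where 7.99% of all probes were called, they were 3 for hypothalamus, 2 for cortex, hippocampus and striatum, 2 for choroid plexus and 1 for blood, and Neurod6 was not called without replicate 1 or replicate 3, nor Ttr without replicate 3. Across these lists 0 genes had an adjusted p under 0.05, and their part in the levels of the members was not tested.

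The promoters of 4 members are shown because their probes were among the most variable between animals (Tshb, Cga), well above background (Lhb) or near background (Prl). RefSeq promoters were found for 6 of the 9 members, and for Lhb the first of 2 listed starts is shown. They are RefSeq sequences on the GRCr8 build from 250 bases before to 50 after the start, in the direction of the gene. Capitals mark matches on either strand to the TATA box TATAAA, the GATA motif GATAAG, ATGNATAA, a form bound by Pou1f1, and CAAGGTCA, a form bound by Nr5a1. The Pitx-type motif TAATCC was also searched and had no match in these windows.
Tshb, chr2:192918005-192918304, minus strand: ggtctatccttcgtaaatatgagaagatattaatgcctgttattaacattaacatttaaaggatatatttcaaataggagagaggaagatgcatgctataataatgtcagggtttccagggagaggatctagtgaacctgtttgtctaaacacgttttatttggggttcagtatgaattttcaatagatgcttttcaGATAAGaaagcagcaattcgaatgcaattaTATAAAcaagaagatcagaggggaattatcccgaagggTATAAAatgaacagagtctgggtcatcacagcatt
Cga, chr5:54283090-54283389, plus strand: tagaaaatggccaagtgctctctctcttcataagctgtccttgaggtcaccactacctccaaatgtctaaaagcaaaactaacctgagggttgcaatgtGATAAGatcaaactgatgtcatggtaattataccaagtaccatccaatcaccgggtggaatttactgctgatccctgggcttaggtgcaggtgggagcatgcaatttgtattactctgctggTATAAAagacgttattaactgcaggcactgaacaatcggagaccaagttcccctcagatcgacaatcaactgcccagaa
Lhb, chr1:105037207-105037506, plus strand: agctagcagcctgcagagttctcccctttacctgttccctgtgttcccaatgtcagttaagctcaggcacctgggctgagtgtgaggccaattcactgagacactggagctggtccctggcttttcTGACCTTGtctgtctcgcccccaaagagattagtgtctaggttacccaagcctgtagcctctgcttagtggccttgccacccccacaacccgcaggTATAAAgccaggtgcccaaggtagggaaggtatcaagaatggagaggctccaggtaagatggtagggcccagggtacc
Prl, chr17:38298168-38298467, minus strand: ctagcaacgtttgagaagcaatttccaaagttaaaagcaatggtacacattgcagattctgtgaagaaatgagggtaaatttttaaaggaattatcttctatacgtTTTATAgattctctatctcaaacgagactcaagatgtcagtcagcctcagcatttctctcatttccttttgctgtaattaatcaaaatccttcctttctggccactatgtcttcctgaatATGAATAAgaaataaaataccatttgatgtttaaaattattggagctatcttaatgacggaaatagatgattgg
TATAAA was present in 14.2% of 33469 promoters of this length, GATAAG in 7.05%, ATGNATAA in 3.0%, CAAGGTCA in 1.52% and TAATCC in 7.17%. GATAAG began at position -53 in Tshb and -151 in Cga, counted from the start. TATAAA was found in all 4, at -23 in Tshb, which held 2 matches, -29 in Cga, -28 in Lhb and, on the opposite strand, at -144 in Prl. ATGNATAA began at -24 in Prl, and CAAGGTCA at -124 in Lhb on the opposite strand. The motifs were chosen with the levels known, and a match describes letters only.

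The genes whose dye-corrected level followed that of a member most closely were looked up for Lhb, Tshb and Cga after their values were seen, among 20653 probes well above background in all 8 samples. For Lhb they were Fcgrt, Aebp1, Vim and Dab2 (Pearson's r = 0.99 each) and Echdc3 (0.98). For Tshb they were Rab11fip4, Otop1, Fto and Sp7 (0.97 each) and Pigl (0.96). For Cga they were Gpr146 and Mccc2 (0.99 each) and Cdh6, Ptprd and Ccdc50 (0.98 each). These are the highest of many values over 8 samples that share 4 arrays, and are given as a description.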

How the data were processed

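Hypothalamic RNA of 4 females and 4 males was measured on 4 two-colour Agilent arrays. Per the submitters' processing notes, Agilent Feature Extraction (version 10.7.3.1) read the scans. Spot and background signals are intensity values as scanned, per the file headers, and the software's own ratio is a log10 value, red over green, per the file headers. The log2 values that the authors deposited equal log2(median signal minus local background) less a constant for each column, and column medians were 0. Of the 6 tested members, 3 had values there in enough samples to be tested.

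Mean signals were corrected with normexp (offset 50) and normalized by loess on each array, controls having no weight, with limma (3.58.1), R (4.3.3) and data.table (1.17.8). Levels were then scaled by Aquantile. Probes were kept where more than 0.5 of the spots were well above background in every animal of a sex, which left 22004. Spots that the scanner software flagged as outliers were left out of the fit, and 21995 of these probes could then be tested. Log2 ratios of female over male were fitted by lmFit and eBayes of limma, with sex and dye as terms, and p-values were adjusted by Benjamini-Hochberg over all probes at a threshold of 0.05. The array shared by a female and a male is the block, known from the numbers in the labels and from paired files having the same contents. After the dye means and then the sex means were removed, deviations of the paired animals correlated across probes at 0.57, 0.65, 0.42 and -0.06 on arrays 1 to 4. Removing these means can by itself relate paired animals when a single sample lies far off, as M2 did. The values therefore cannot show whether paired animals shared an array effect. Each gene is given by its brightest probe in counts of genes. Steps were tested on simulated data. Python 3.11.15, pandas 2.3.3, scipy 1.17.1 and matplotlib 3.10.9 were used.

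The members and the 12 lists were chosen with earlier results of these data known. All members were named, with up to 3 genes of each list by smallest unadjusted p, and genes alike Gh1 or Prl only if their probe was well above background in all 8 samples, which neither was. Crh, Pitx1, Lhx4, Hesx1, Pomc and the genes alike Lhb, Tshb and Cga were named after their values were seen. The correlation without M2 was added after seeing the data. As alternatives, the dye term, the block, the background correction, the normalization, the source of the values, the filter, the outlier spots, the prior and each replicate were changed or left out in turn.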

Additional observations from a re-analysis of the deposited data

Results flagged for a closer look

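Among 86 groups of 4 dye-corrected log2 levels checked with Dixon's test, 5 had a sample far from the others, and chance marks about 1 in 20 groups. All 5 samples were M2. The level of Lhb was 8.83 in M2, against 9.48 to 9.56 in the other males. Gnrhr was at 7.08 in M2, the only sample where it was well above background, against 6.58 to 6.64 in the other males. Isl1, a transcription factor of pituitary and hypothalamic cells, was at 7.60 in M2, against 8.76 to 8.97. Prlr, the prolactin receptor, was at 6.80, against 7.42 to 7.43. Neurod6, a marker of cortical and hippocampal neurons, was at 13.86, against 8.18 to 9.08. It was also raised in F2, which shared its array with M2, at 11.97 against 7.22 to 8.24 in the other females.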

How the results depend on the processing

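The fitted ratios of Tshb, Cga and Lhb kept their direction and stayed on the same side of the adjusted threshold under the 11 alternatives that kept all replicates (0.24 to 0.31, 0.64 to 0.68 and 0.05 to 0.16). Gh1 ranged from 0.63 to 2.36 and Pou1f1 from 0.03 to 0.12, and Fshb ranged from -0.33 to 0.05, with 0.05 under median centring. Leaving out each replicate gave -1.16 to 1.71 for Tshb, -0.14 to 1.5 for Cga, 0.35 to 0.92 for Gh1, 0.0060 to 0.21 for Lhb, -0.05 to 0.0046 for Fshb and -0.02 to 0.08 for Pou1f1. Each such fit left a single array in 1 of the dye orientations, and that array weighed most. The same omissions gave 0 to 1 members past the adjusted threshold, 0 to 2 past the unadjusted one and 0 to 1479 of all probes past the adjusted one, the upper ends without replicate 4. Without a filter Gh1 missed the unadjusted threshold, so 0 members passed it. The count was also 0 when all 8 samples had to be well above background and with the authors' value table, since Gh1 was not among the tested probes there. In the separate-channel fit without the replicate block 0 members passed it, with Gh1 at 0.63. The causes were not tested. Without M2 the correlation of Lhb with Tshb was -0.55 and that with Cga -0.19. The dye correction was still the one made over all 8 samples, so these values are not free of M2. Signals near background limit Gh1, Prl, Fshb and the receptors, where a difference may be compressed.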
